A study of Mus musculus with 18 samples.

Results

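The genes described here are 36 endothelial and endocardial genes, chosen by name as a list of genes of the vascular lining, out of 28563 genes with estimated counts in mouse heart ventricles. They comprise 26 pan-endothelial genes (12 surface, junction and secreted proteins, 3 receptors of vascular endothelial growth factor, 8 transcription factors and 3 genes known to respond to blood flow), 5 genes of the endocardium and 5 genes of coronary or capillary endothelium. PolyA RNA of ventricles dissected at embryonic day 14.5 was sequenced in 18 libraries to compare hearts lacking Irx3, Irx4 or both, which encode Iroquois homeobox transcription factors. The groups were wild type (WT, 3 libraries), Irx3KO (3), Irx4KO (3), animals heterozygous for both genes (dHet, 3) and animals labelled as knockout for both (DKO, 6). The labels give no strain or design of the alleles, and do not say whether each library is a separate embryo. The p-values therefore measure the spread between libraries, which may be technical.

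Endothelial cells line all vessels, and the endocardium is the specialised endothelium that lines the heart chambers. Endocardial cells signal to the myocardium during the growth of trabeculae, while coronary vessels grow into the compact wall and later supply it with blood. VEGF receptors and transcription factors of the ETS and SOX families maintain endothelial identity, and apelin and its receptor act in sprouting and coronary vessels.

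The libraries differ technically in a way that no label records, and form 2 sets. Set 1 holds WT 1, 2 and 3 with DKO 5, 7 and 10, and set 2 holds the other 12 libraries, including DKO 2, 3 and 4, so genotypes were compared only within a set. Library totals ran from 26721576 to 45946741 estimated counts. Irx3 was at 22.1 to 28.5 CPM (counts per library, put on one common scale) in WT, at 12.8 to 13.3 CPM in dHet and at 2.58 to 4.33 CPM in the libraries labelled Irx3KO or DKO. Irx4 was at 78.8 to 126 CPM in WT and at 216 to 282 CPM in the libraries labelled Irx4KO or DKO, which span both sets. Its log2 fold change was 1.41 ± 0.138 (SE) for DKO against WT within set 1. Within set 2 it was 0.28 ± 0.135 for Irx4KO and 0.31 ± 0.135 for DKO, each against dHet. Without a stated deletion within Irx4 this count checks neither label nor direction. Cardiomyocyte markers summed to between 31150 and 36850 TPM (a share of the library scaled for transcript length) and none of the 10 was at 0 in any library. Y-linked genes summed to between 0.744 and 1.55 TPM in WT 3, DKO 4 and dHet 2, and to between 54.4 and 158 TPM in the other 15 libraries.

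Promoters of 4 members are shown because their genes head the comparisons below: the VEGF receptors Kdr and Flt1, which differed between the library sets, and Robo4 and Apln, which with Kdr had the smallest p-values between genotypes. Each is the stretch of 250 bases upstream of the annotated start, 5′ to 3′ on the strand of the gene, from RefSeq on GRCm38.p6, which is not the build named in the submitters' processing notes. The windows are chr5:75978456-75978705 (minus strand) for Kdr, chr5:147726012-147726261 (minus) for Flt1, chr9:37401722-37401971 (plus) for Robo4 and chrX:48034854-48035103 (minus) for Apln. Capitals mark AGGAAG or its reverse complement CTTCCT, letters that hold the GGAA core bound by ETS factors such as the members Erg and Fli1.
Kdr: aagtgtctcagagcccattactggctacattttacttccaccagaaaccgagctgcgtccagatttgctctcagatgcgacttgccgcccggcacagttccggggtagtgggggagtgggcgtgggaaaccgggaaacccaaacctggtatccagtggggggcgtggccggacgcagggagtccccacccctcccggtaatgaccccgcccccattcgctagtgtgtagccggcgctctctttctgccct
Flt1: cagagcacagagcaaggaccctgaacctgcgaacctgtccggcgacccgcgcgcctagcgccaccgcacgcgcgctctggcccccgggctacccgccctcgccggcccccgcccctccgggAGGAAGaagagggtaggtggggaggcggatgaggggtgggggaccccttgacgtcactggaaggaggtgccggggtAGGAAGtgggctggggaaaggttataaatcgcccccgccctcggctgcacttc
Robo4: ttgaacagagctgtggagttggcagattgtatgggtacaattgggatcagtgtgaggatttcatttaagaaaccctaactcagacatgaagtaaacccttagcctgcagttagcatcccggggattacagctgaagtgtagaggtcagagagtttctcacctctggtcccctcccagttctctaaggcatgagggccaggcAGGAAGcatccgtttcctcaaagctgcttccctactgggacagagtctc
Apln: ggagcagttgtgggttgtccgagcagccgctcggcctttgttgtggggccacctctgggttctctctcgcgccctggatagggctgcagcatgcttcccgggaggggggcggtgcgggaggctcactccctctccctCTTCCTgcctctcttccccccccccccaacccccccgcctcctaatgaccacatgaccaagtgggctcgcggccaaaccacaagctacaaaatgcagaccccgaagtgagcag
The letters occur at 2 places in the Flt1 window, at 1 place each in those of Robo4 and Apln, and not in that of Kdr. The shorter GGAA core, read on either strand, also occurs outside the marked letters, including in the Kdr window. AGGAAG or CTTCCT was found in 10 of 23 windows of the members (43.5%), against 29.5% of all 32851 windows. The 23 windows belong to 18 members, of which 9 have the letters in at least 1 window. A match in the letters is a description and not a bound site.

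The endothelial genes were present in every group. On the TPM scale, averaged over all 18 libraries, the fatty acid carrier Fabp4 was highest at 297 ± 78.8 TPM (SD, n = 18). Next came Egfl7, a secreted vascular protein, at 174 ± 20.9 TPM and Ramp2, the partner of the adrenomedullin receptor, at 142 ± 14.8 TPM. The spreads of Egfl7 and Ramp2 overlap. The adhesion molecules Cdh5 (VE-cadherin) and Pecam1 were at 102 ± 12.7 and 81.4 ± 5.26 TPM. Kdr, the main VEGF receptor, was at 40.4 ± 7.1 TPM, above Flt1, a VEGF receptor known as a decoy, at 18.5 ± 1.97 TPM, and the lymphatic and angiogenic receptor Flt4 at 8.61 ± 1.18 TPM. Of the endocardial genes Plvap, a protein of endothelial diaphragms, was highest at 53.9 ± 11 TPM and the blood clotting factor gene Vwf lowest at 6.33 ± 2.44 TPM. The capillary carbonic anhydrase gene Car4 was at 0.72 ± 0.425 TPM. Etv2, an ETS factor of early vascular progenitors, lay between 0 and 0.248 TPM and was the 1 member too low to be tested.

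Summed over the 26 pan-endothelial genes, the level was 1073 ± 92.1 TPM in WT and 1050 ± 86.6 in DKO of set 1 (SD, n = 3 each). In set 2 it was 1016 ± 34.9 in DKO, 1079 ± 93.8 in Irx3KO, 1063 ± 25 in Irx4KO and 1093 ± 52.8 in dHet. On this scale the ranges overlap within each set. On the CPM scale the sums of DKO in set 2, 1620 to 1681, lay below those of Irx4KO (1684 to 1765) and dHet (1747 to 1835). They overlapped those of Irx3KO (1619 to 1799), and in set 1 WT (1591 to 1816) and DKO (1666 to 1803) overlapped. The 5 endocardial genes summed to 134 ± 18.8 TPM in WT and 106 ± 10.7 in DKO of set 1, and to 104 ± 20.9 in DKO, 106 ± 21.1 in Irx3KO, 88.5 ± 3.68 in Irx4KO and 98.9 ± 13.1 in dHet of set 2. The 5 coronary genes, in which Fabp4 weighs most, summed to 452 ± 179 TPM in WT and 324 ± 50.5 in DKO of set 1. In set 2 they summed to 367 ± 114 TPM in DKO, 406 ± 29.9 in Irx3KO, 471 ± 15.3 in Irx4KO and 471 ± 11.3 in dHet. All coronary sums of DKO in set 2, at most 452 TPM, were below those of dHet (at least 462) and Irx4KO (at least 454). They overlapped those of Irx3KO (387.7 to 440.5 TPM), and DKO 4 was the lowest at 237 TPM. In bulk tissue, the number of endothelial cells and the RNA per endothelial cell cannot be told apart.

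DKO ventricles were compared with WT within set 1 to ask which endothelial genes differ when both Irx genes are mutated. None of the 35 tested members passed an adjusted p of 0.05 in edgeR's quasi-likelihood test, while 1.44% of all 16607 genes tested did. At an unadjusted p under 0.05 there were 7 members (2287 of all genes), and DESeq2 called 1, Apln. The members' median log2 fold change was -0.067, beside 0.009 over all genes. The groups did not overlap for 5 members (14.3%), 3 higher and 2 lower in DKO, beside 15% of all genes (7.97% higher and 7.04% lower).

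None of the 5 coronary genes passed. All 5 were fitted below 0, with a median of -0.453, but their sums overlap, since WT 2 at 246 TPM was the lowest of the 6 libraries and DKO 5, 7 and 10 were at 274, 375 and 323 TPM. The pan-endothelial class was split between 13 above and 12 below, with a median of 0.001. Apln, the apelin peptide made by sprouting tip cells, was at 29.2, 28.7 and 31.2 CPM in WT 1, 2 and 3 and at 19.1, 26 and 19.2 CPM in DKO 5, 7 and 10. Every DKO library lay below every WT library, with DKO 7 nearest to WT. The log2 fold change of Apln was -0.47 ± 0.136 (SE, 3 against 3 libraries, 95% interval -0.76 to -0.19; edgeR adjusted p = 0.103), and in DESeq2 it was -0.467 (adjusted p = 0.0362). Without DKO 7 the edgeR value was -0.63 (adjusted p = 0.0326).

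Aplnr, the receptor of apelin, was at 62.2, 25.8 and 55.4 CPM in WT and at 38.5, 33.2 and 32.1 CPM in DKO of set 1. Fabp4, a marker of capillary endothelium, was at 129, 50.2 and 134 CPM in WT and at 65.2, 92.7 and 71.3 CPM in DKO. For both genes WT 1 and WT 3 were above all 3 DKO libraries and WT 2 was below them. Their log2 fold changes were -0.47 ± 0.255 and -0.45 ± 0.332 (edgeR adjusted p = 0.450 and 0.596). Without WT 2, Aplnr was at -0.765 (adjusted p = 0.0414), which leaves 2 WT libraries. With DKO 4 left out as well, a choice made after the data were seen, Aplnr was at -0.765 (adjusted p = 0.00703) and Fabp4 at -0.786 (adjusted p = 0.00752). DKO 4 is in set 2 and enters this comparison only through the shared spread. WT 2 and DKO 4 were left out because both are low in these genes, so this fit is no independent test of them. The fatty acid transporter gene Cd36 was at -0.21 ± 0.145. Car4, under 2 CPM in every library and at 0 in Irx3KO 4, was at -0.42 ± 0.765, with an interval of -2.03 to 1.20.

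The endocardial genes did not share a direction in DKO against WT. The secreted cytokine-like gene Cytl1 was at 20.3, 6.12 and 31.4 CPM in WT and at 7.70, 12.4 and 5.25 CPM in DKO of set 1. WT 1 and WT 3 stood above all other libraries of the series, at or below 12.4 CPM, and WT 2 lay within the DKO range. Its log2 fold change was -1.19 ± 0.429 (edgeR adjusted p = 0.219), or -1.61 without WT 2 (adjusted p = 0.0141). The calcineurin-regulated transcription factor gene Nfatc1, which defines the endocardium, was at 47.8, 49.8 and 49.5 CPM in WT and at 53.8, 51.9 and 59.5 CPM in DKO. All 3 DKO libraries lay above WT, by 0.17 ± 0.0877 on the log2 scale (adjusted p = 0.415). Plvap was at 66.7, 103 and 76.4 CPM in WT and at 86.2, 65.5 and 73 CPM in DKO, and WT 2 was the highest of the 6.

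Among pan-endothelial genes, those of the cell surface were mostly at 0 or slightly above. Of the 12, 9 were fitted higher and 3 lower in DKO than in WT, with a median of 0.043. Pecam1 differed by 0.02 ± 0.0671 with an interval of -0.13 to 0.16, and the endothelial sialomucin gene Emcn by 0.25 ± 0.105 (0.03 to 0.47). Clec14a and Eng were higher in DKO by 0.20 ± 0.0794 and 0.17 ± 0.0733 (edgeR adjusted p = 0.257 and 0.303). Emcn and Eng did not overlap between DKO and WT. All 3 VEGF receptors were fitted lower, Kdr by -0.19 ± 0.0830 (-0.37 to -0.02), Flt4 by -0.17 ± 0.0844 (-0.35 to 0.00) and Flt1 by -0.03 ± 0.0631 (-0.16 to 0.10). None of these passed, and the intervals bound the differences without showing that the levels are alike. Klf4, a flow-responsive repressor of inflammation, was at 2.11, 10.2 and 12.5 CPM in WT and 7.27, 11.3 and 20.1 CPM in DKO, a spread within each group that covers the difference between them.

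**Figure D1:**
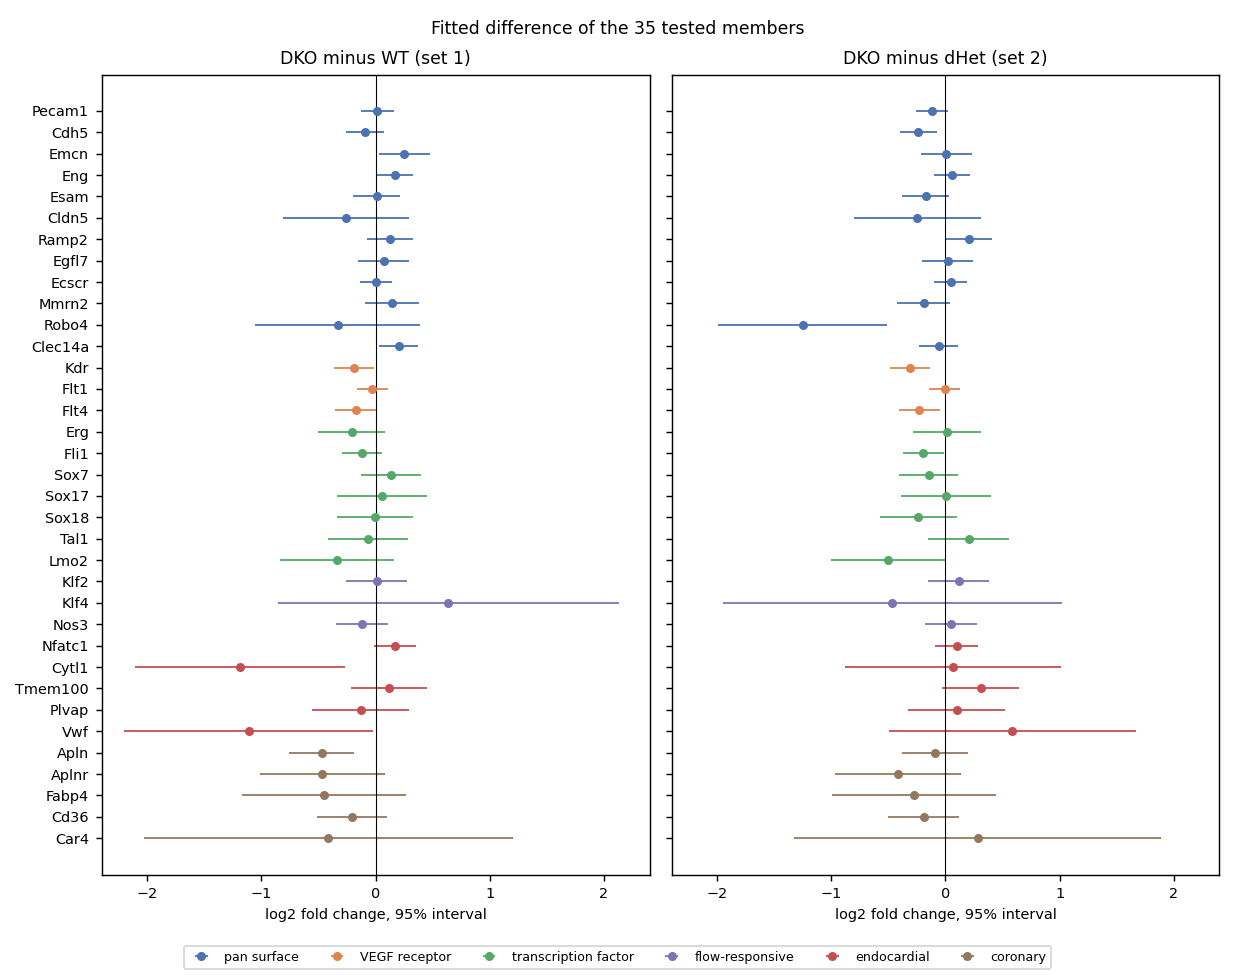
Fitted log2 fold change of each tested member (points) with its 95% interval (lines) for DKO minus WT in set 1 (left) and DKO minus dHet in set 2 (right), coloured by role. All 5 coronary genes lie below 0 on the left with a median of -0.453, and Robo4 lies lowest on the right at -1.25; no member passed an adjusted p of 0.05.

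Other genes of the vascular pathways were counted from lists of ligands, endothelial, endocardial and vessel-type genes. In DKO against WT, 0 of 8 VEGF and apelin ligands and co-receptors, 0 of 14 further endothelial genes and 0 of 5 further endocardial genes passed in edgeR (3, 2 and 0 at an unadjusted p under 0.05). Of 12 arterial, venous and lymphatic genes 1 rose and 1 fell. Lyve1, a hyaluronan receptor of lymphatic vessels and some macrophages, was at 8.80, 5.52 and 9.28 CPM in WT and at 18, 21.4 and 15.3 CPM in DKO of set 1, with no overlap. It rose by 1.21 ± 0.204 (log2 fold change, SE, edgeR adjusted p = 0.00739). Pdpn, a glycoprotein of lymphatic and epicardial cells, was at 16.8, 17.6 and 15.4 CPM in WT and at 12.6, 12.1 and 9.96 CPM in DKO. It fell by 0.52 ± 0.116 (adjusted p = 0.0293), also with no overlap. In the other comparisons of genotypes none of these genes passed in edgeR.

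Levels of markers of other cell types were compared in the same libraries. Of 11 erythroid markers 10 were fitted lower in DKO than in WT (median -0.463), and their summed level was 15070 to 21240 TPM in WT and 9892 to 17360 in DKO. All 10 macrophage markers were fitted lower (median -0.236), with sums of 70.8 to 131 TPM in WT and 63.5 to 91 in DKO, and none was at 0 in either group. Of 10 cardiomyocyte markers 9 were fitted higher (median 0.175), and 1, the myosin gene Myh6, rose by 0.65 ± 0.12 (edgeR adjusted p = 0.0122). Smooth muscle and pericyte markers summed to 829 to 1033 TPM in WT and 507 to 1059 in DKO, with 6 of 7 fitted lower (median -0.221) and Myh11 at 0 in DKO 5, 7 and 10 and in WT 2. Their part in the values of the coronary genes was not tested.

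Within set 2, DKO was compared with dHet, Irx4KO and Irx3KO. In edgeR none of the 35 members passed in any of the 3, while 0.0903%, 0.0241% and 0.379% of all genes tested did. At an unadjusted p under 0.05 there were 6, 6 and 4 members (1629, 960 and 1313 of all genes), and DESeq2 called 2, 0 and 0. The members' medians were -0.061, -0.081 and -0.025, beside 0.004, 0.000 and 0.004 over all genes. The 3 comparisons share the DKO libraries of set 2 and so are not independent. Of the 5 coronary genes 4 were fitted lower in DKO in each of the 3, with medians of -0.190, -0.238 and -0.073. Their sum was 383 and 388 CPM in DKO 2 and 3 but 260 CPM in DKO 4. It was 389 to 425 CPM in dHet, 404 to 438 in Irx4KO and 345 to 394 in Irx3KO.

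Kdr had the smallest p of any member. It was at 164, 178 and 149 CPM in DKO 2, 3 and 4 and at 209, 193 and 209 CPM in dHet 2, 3 and 4. All DKO libraries were below all dHet libraries. The difference was -0.31 ± 0.0830 (log2, SE, 95% interval -0.49 to -0.14, edgeR adjusted p = 0.165), and Kdr passed in DESeq2 (-0.322, adjusted p = 0.0269) and in a fit of set 2 alone (-0.317, adjusted p = 0.038). In Irx3KO it was at 183, 196 and 180.2 CPM and in Irx4KO at 171, 184 and 188 CPM, between the DKO and dHet means. In WT it was at 164, 141 and 165 CPM, where the lowest, WT 2, lay within the range of set 1 DKO.

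Flt4 was at 37.1, 37 and 33 CPM in DKO, 43.6, 41.9 and 42.1 in Irx3KO, 39.5, 41.1 and 41 in Irx4KO and 43.1, 42.9 and 39.6 in dHet. The DKO libraries were below those of each other genotype of set 2. In set 1 WT was at 38.5, 31.7 and 42.5 CPM and DKO at 32.5, 32.4 and 35 CPM, with overlap. Against Irx3KO the difference was -0.25 ± 0.0844 (edgeR adjusted p = 0.332), and in a fit of set 2 alone -0.258 (adjusted p = 0.0483). Flt1 did not follow, with -0.01 ± 0.0631 against dHet and an interval of -0.14 to 0.12.

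Robo4, a receptor that stabilises the endothelial barrier, was at 13.4, 7.96 and 5.01 CPM in DKO of set 2 and at 17.8, 26.3 and 18.6 CPM in dHet. DKO 4 was the lowest of all 18 libraries and no DKO library reached a dHet library. The difference was -1.25 ± 0.345 (edgeR adjusted p = 0.210; DESeq2 -1.26, adjusted p = 0.0477). Against Irx3KO, at 14.3, 18.8 and 21.5 CPM, it was -1.05 ± 0.344 (adjusted p = 0.340). Irx4KO was at 9.66, 14.9 and 23.6 CPM and overlapped DKO, with a difference of -0.87 ± 0.344 (adjusted p = 0.850). In the other set DKO 5, 7 and 10 were at 13.1, 14.3 and 15.5 CPM and WT at 15.2, 16.5 and 22.2 CPM. These ranges overlap, and the difference was -0.33 ± 0.336 (adjusted p = 0.725).

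Cdh5 was at 260.0, 286 and 261 CPM in DKO and at 322, 302 and 325 CPM in dHet, again with no overlap. The difference was -0.24 ± 0.0784 (edgeR adjusted p = 0.310). Irx3KO was at 302, 325 and 281 CPM and Irx4KO at 286, 299 and 308 CPM, and DKO 3 lay above the lowest Irx3KO library and level with the lowest Irx4KO library. In set 1 WT was at 298, 238 and 295 CPM and DKO at 265, 256 and 257 CPM, with WT 2 below all DKO libraries. Of all members, 9 (25.7%) did not overlap between DKO and dHet, 2 higher and 7 lower in DKO, beside 16% of all genes (8.07% higher and 7.95% lower). The 7 were Pecam1, Cdh5, Robo4, Kdr, Flt4, Fli1 and Lmo2, and the 2 were Ramp2 and the endothelial regulator Ecscr. For DKO against Irx4KO the number was 8 (22.9%), beside 15% of all genes, and for DKO against Irx3KO 5 (14.3%), beside 17.4%.

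None of the 7 tested transcription factors passed. Fli1, an ETS factor of endothelial and blood cells, was at 27.8, 27.1 and 26.6 CPM in DKO and 32.1, 29.8 and 31.6 CPM in dHet, a difference of -0.20 ± 0.0855 (edgeR adjusted p = 0.463). It was at 28.2, 28.1 and 28.6 CPM in Irx3KO and 28.7, 27.5 and 30.3 CPM in Irx4KO, of which only Irx4KO overlapped DKO. In set 1 the levels of WT, 32.3, 27.7 and 34.3 CPM, and DKO, 25.3, 30.0 and 31.6 CPM, overlapped. Lmo2, a bridging factor in endothelial and blood progenitors, was at 13.9, 11.8 and 12.3 CPM in DKO and 15.5, 18.6 and 19.5 CPM in dHet. The libraries did not overlap, and the difference was -0.50 ± 0.238 (adjusted p = 0.511). In Irx3KO it was at 15.7, 16.3 and 12.1 CPM and in Irx4KO at 16.5, 18.1 and 11.7 CPM, and both overlapped DKO. In set 1 Lmo2 was at 20.4, 17.3 and 19.8 CPM in WT and 10.8, 11.5 and 23.1 CPM in DKO, and DKO 10 alone stood above WT. Without DKO 10 its difference from WT was -0.78 (adjusted p = 0.0242), with 2 DKO libraries. The ETS factor Erg differed from dHet by 0.01 ± 0.140 and the SOX factors Sox7, Sox17 and Sox18 by -0.15 ± 0.124, 0.01 ± 0.188 and -0.24 ± 0.159.

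The flow-responsive genes overlapped between DKO and the other genotypes of set 2. The shear stress factor Klf2 was at 17, 20.5 and 23.3 CPM in DKO and 19, 18.7 and 18.3 CPM in dHet, with overlap and a difference of 0.12 ± 0.126 (edgeR adjusted p = 0.827). It was at 18.5, 21.8 and 18.3 CPM in Irx3KO and 18.6, 18.9 and 20.5 CPM in Irx4KO, and in set 1 at 21.9, 19.6 and 23.7 CPM in WT and 26.3, 20.3 and 18.9 CPM in DKO. All of these ranges overlap those of DKO in the same set. Nos3, the endothelial nitric oxide synthase, was at 72.6, 83.2 and 83.1 CPM in DKO and 67.1, 64.8 and 76.8 CPM in Irx4KO. These ranges overlap, and the difference was 0.20 ± 0.108 (adjusted p = 0.907). Irx3KO was at 83.7, 83 and 71.9 CPM and dHet at 74.2, 75.3 and 81.3 CPM, and in set 1 WT was at 73.5, 67.3 and 80.1 CPM and DKO at 81.5, 59.1 and 62.5 CPM. DKO overlapped each of them within its set.

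Against Irx4KO, the members with the smallest p were endocardial. Tmem100, a membrane protein induced by BMP signals in the endothelium, was at 13, 17.7 and 18 CPM in DKO and at 11, 11.4 and 11.2 CPM in Irx4KO. The DKO libraries were all above, by 0.54 ± 0.160 (95% interval 0.20 to 0.88), yet the edgeR adjusted p was 0.712. It was at 14.5, 14.8 and 11.8 CPM in Irx3KO and 13.7, 12.3 and 13.2 CPM in dHet, and in set 1 at 16.1, 24.9 and 17.2 CPM in WT and 24.8, 19 and 19.3 CPM in DKO. DKO overlapped each of these within its set. Aplnr was at 40.2, 41.9 and 26.2 CPM in DKO and at 46.9, 58.4 and 55.9 CPM in Irx4KO. All DKO libraries were below, by -0.57 ± 0.256 (log2, adjusted p = 0.852). Apln, at 25.2, 26.7 and 19.2 CPM in DKO and 25.2, 22.4 and 26 CPM in Irx4KO, overlapped, and its difference from Irx4KO was -0.05 ± 0.136 (-0.34 to 0.23). In Irx3KO Apln was at 23.6, 26.5 and 27 CPM and Aplnr at 44.3, 45 and 39.6 CPM, and in dHet they were at 22.7, 23.4 and 29.6 CPM and at 52.4, 51.6 and 40.4 CPM. Both genes overlapped DKO in Irx3KO and in dHet.

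**Figure D2:**
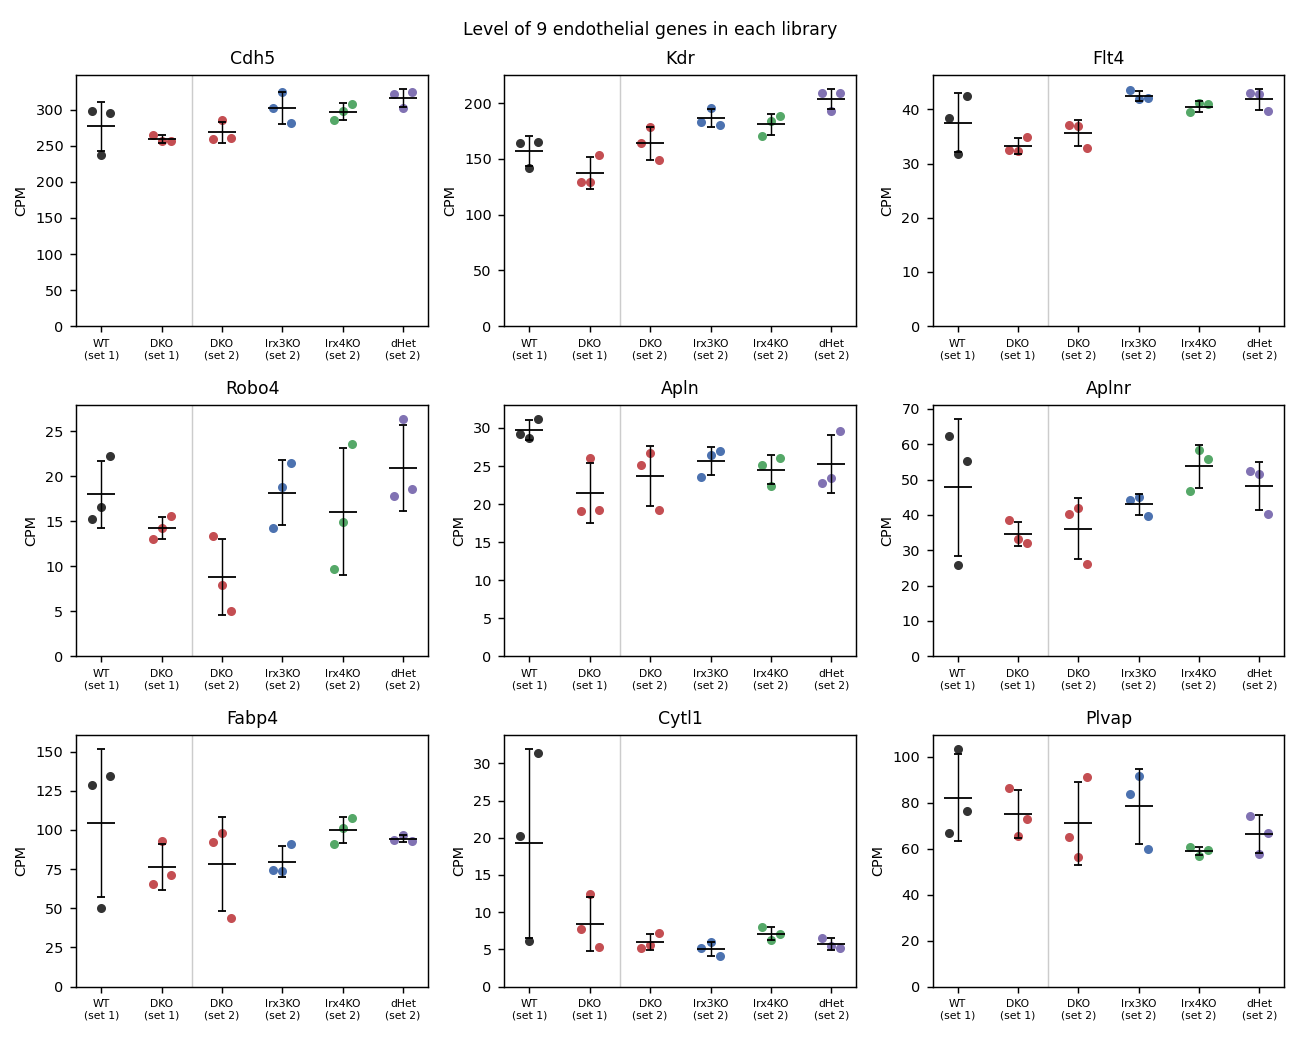
CPM of 9 members in each library (points, in order of replicate number), with mean and SD of each group of 3 (bar and whiskers); the vertical line separates set 1 from set 2. Apln of DKO in set 1 lies below all WT libraries, Kdr and Robo4 of DKO in set 2 lie below all dHet libraries, and 1 WT library stands apart in Aplnr, Fabp4, Cytl1 and Plvap.

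Single knockouts were compared with each other and with dHet. In edgeR no member passed between Irx3KO and Irx4KO, between Irx3KO and dHet or between Irx4KO and dHet, where 0.289%, 0.00602% and 0.012% of all genes did. At an unadjusted p under 0.05 there were 1, 0 and 1 members (1432, 728 and 931 of all genes), and DESeq2 called 0 in each. The 1 member in both was Vwf. The members' medians were -0.016, -0.058 and -0.017, beside -0.002, 0.000 and 0.002 over all genes. Non-overlapping members numbered 6, 5 and 5 (17.1%, 14.3% and 14.3%), beside 22.7%, 11.6% and 14.1% of all genes.

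Vwf, made by endothelium and platelets, differed in level between libraries of 1 genotype. It was at 23.8, 29.3 and 29 CPM in WT and 17, 11.2 and 9.70 CPM in DKO of set 1, and at 17.7, 27.3 and 33.3 in DKO of set 2. In Irx3KO it was at 8.09, 37.2 and 6.75 CPM, in Irx4KO at 7.07, 7.65 and 7.79 CPM and in dHet at 15.9, 16.1 and 20.3 CPM. On this CPM scale DKO was below WT in set 1 and above Irx4KO in set 2, without overlap in either, and Irx3KO 2 stood far above its 2 companions. On the deposited TPM scale WT was at 6.45, 10.3 and 9.18 TPM and DKO of set 1 at 11.9, 5.52 and 4.47 TPM. DKO 5 then lay above every WT library, so WT and DKO overlap on that scale.

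The fitted differences of Vwf were -1.11 ± 0.504 against WT (edgeR adjusted p = 0.348) and 1.80 ± 0.521 against Irx4KO (adjusted p = 0.722). Without Irx3KO 2, which enters neither comparison except through the shared spread, they were -1.11 (adjusted p = 0.024) and 1.80 (adjusted p = 0.00732). With Irx3KO 2 left out, DKO was also above Irx3KO, by 1.81 (adjusted p = 0.0155). The same fit called a difference of 1.04 between DKO of set 2 and DKO of set 1 (adjusted p = 0.00525), which are libraries of 1 genotype. In a fit of Irx4KO and dHet alone Vwf was at -1.21 (adjusted p = 0.00913).

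The estimates per transcript separated the libraries further. Vwf-203, a protein-coding transcript of 8834 nucleotides, was estimated at 1.72 to 3.21 CPM in 8 libraries and at 10.9 to 33.8 CPM in the other 10, with none between. The 8 were DKO 5, 7 and 10, Irx3KO 1 and 4 and all 3 Irx4KO libraries. The 10 held all WT and dHet libraries, DKO 2, 3 and 4 and Irx3KO 2. Vwf-210, a transcript of 2686 nucleotides annotated for nonsense-mediated decay, was estimated at 5.76 to 13.2 CPM in the 6 libraries of set 1 and at 1.2 to 4.73 CPM in the 12 of set 2, with no overlap between the sets. kallisto divides reads among transcripts by a model, so such a level is an estimate. The summed level of 4 platelet markers was 12 to 18 TPM in DKO of set 1 and 14.9 to 17 TPM in Irx4KO, within or near the 13.5 to 20.6 TPM of WT, and none of the 4 was at 0.

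**Figure D3:**
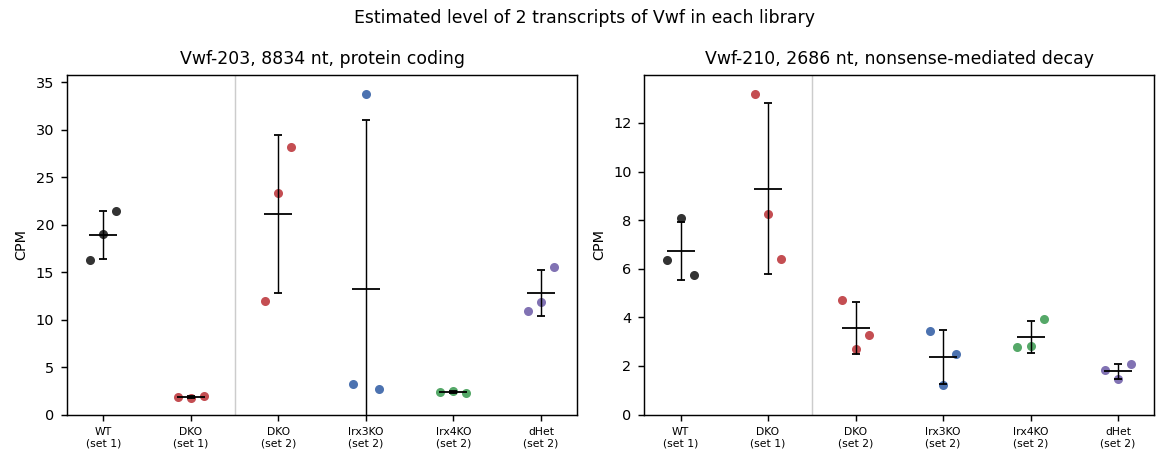
Estimated CPM of the transcripts Vwf-203 (left) and Vwf-210 (right) in each library (points), with mean and SD of each group of 3 (bar and whiskers). Vwf-203 lies at 1.72 to 3.21 CPM in 8 libraries and at 10.9 to 33.8 CPM in the other 10, and Vwf-210 at 5.76 to 13.2 CPM in set 1 and 1.2 to 4.73 CPM in set 2.

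The spread between libraries of 1 group differed widely among members. The pooled SD on the log2 scale was highest for Klf4 (0.888), Vwf (0.599), Cytl1 (0.561) and Fabp4 (0.442), and lowest for Ecscr (0.0582), Flt1 (0.0716) and Pecam1 (0.0784). The members' median was 0.168 and that of all genes 0.149. Genes of high spread need larger differences to be called.

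WT 2 and DKO 4 shared some of their departures from their groups. The members named here were picked after their values were seen because both libraries departed the same way. Both had the lowest Fabp4, Aplnr, Cldn5, Cd36, Sox17 and Sox18 of their 3 libraries, and both had the highest Plvap, Tal1, Tmem100 and Car4. Pecam1, Esam, Egfl7, Kdr, Flt1, Flt4, Fli1, Sox7 and Apln were also lowest in both, and Emcn, Mmrn2, Nfatc1 and Vwf highest. The share of all genes that departed the same way in both libraries was not counted. Claudin-5, the tight junction protein encoded by Cldn5, was at 18.2, 10.1 and 21.1 CPM in WT 1, 2 and 3 and at 14.3, 18 and 8.41 CPM in DKO 2, 3 and 4. Tal1, a factor of blood and endothelial progenitors, was at 19.7, 27.1 and 20.9 CPM and at 17.7, 18.8 and 27.7 CPM in the same libraries. The 5 coronary genes summed to 539, 246 and 570 TPM in WT 1, 2 and 3 and to 412, 452 and 237 TPM in DKO 2, 3 and 4. The low sums are those of WT 2 and DKO 4.

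The marker lists of other cells were compared in these 2 libraries too. Macrophage markers summed to 131 TPM in WT 2, against 70.8 and 77.7 in WT 1 and 3, but to 55.7 TPM in DKO 4, against 59.2 and 67 in DKO 2 and 3. Cushion and fibroblast markers summed to 1165 TPM in WT 2, against 1542 and 1604, and to 1550 TPM in DKO 4, against 1661 and 1866. The macrophage sum was thus the highest of the group in WT 2 and the lowest in DKO 4, whereas the cushion and fibroblast sum was the lowest in both. The sum of the 6 listed further endocardial genes, of which 5 were tested, was the highest of the group in both. It was 146 TPM in WT 2 (121 and 135 in WT 1 and 3) and 178 TPM in DKO 4 (148 and 163 in DKO 2 and 3). Hbb-y, an embryonic globin gene, was at 969.5, 1915 and 969 CPM in WT 1, 2 and 3 and at 567, 777 and 1638 CPM in DKO 2, 3 and 4. Within these groups Hbb-y was highest in WT 2 and DKO 4. The adult globin gene Hbb-bs was lowest in them, at 922 and 694 CPM. Over all libraries Hbb-y was highest in DKO 5, at 2079 CPM. DKO 5 also had the lowest coronary sum of its group, 274 TPM, but the highest Hbb-bs of that group, 1053 CPM. The part of these cells in the values was not tested. WT 2 was the lowest of its group in 23 of 35 members (65.7%), beside 33.7% of all genes, and WT 3 was the lowest in 1 (2.86%), beside 36.6%. DKO 4 was the lowest of its group in 16 (45.7%), beside 32.8% of all genes, and the highest in 13 (37.1%), beside 30.1%. Other members went opposite ways: Cytl1 deviated from the group mean by -1.31 in WT 2 and by 0.26 in DKO 4, and Klf2 by -0.14 and 0.21, on the log2 scale. Irx3KO 4 was the lowest of its group in 24 (68.6%), beside 35.9% of all genes.

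**Figure D4:**
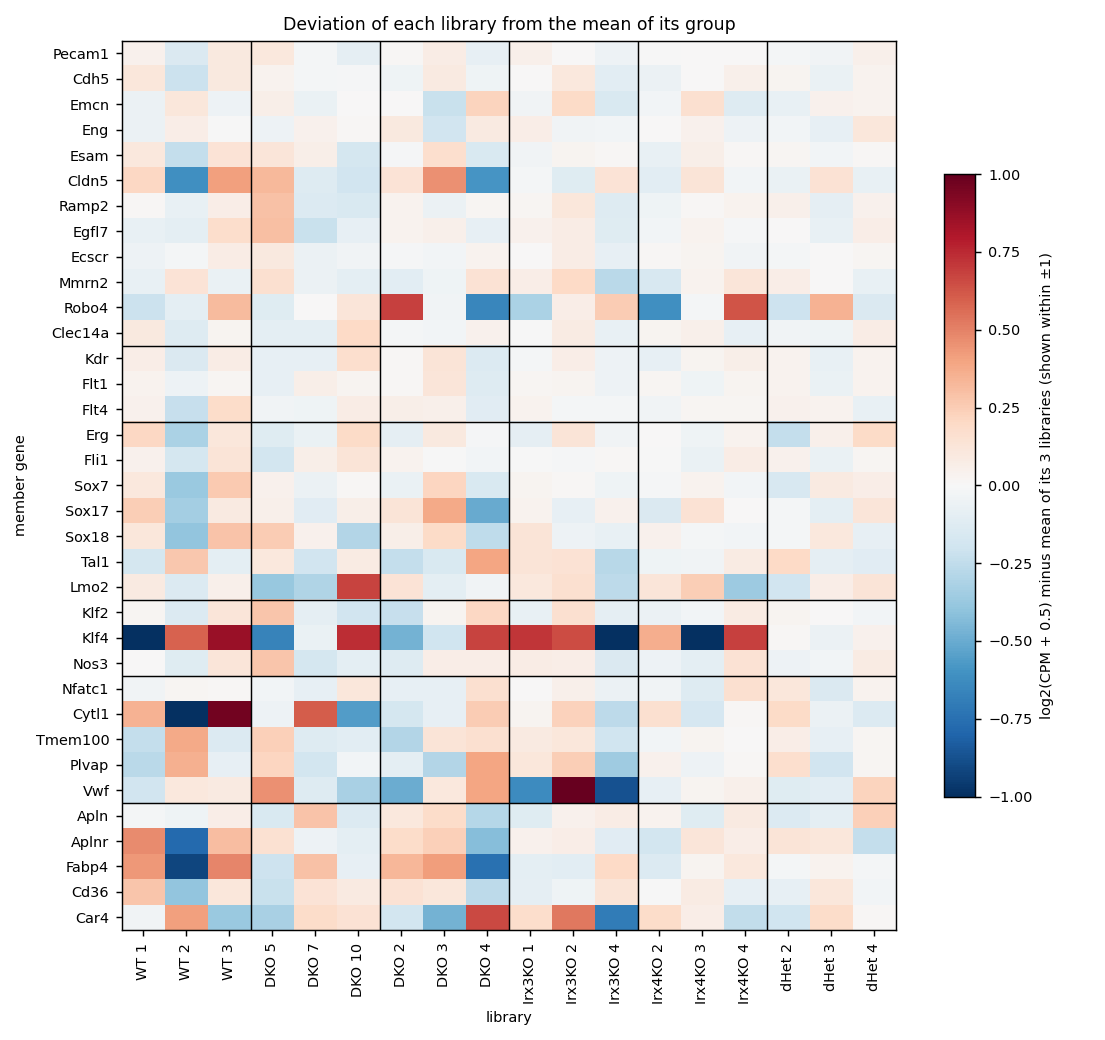
Deviation of each library (columns, in groups of 3) from the mean of its own group on the log2(CPM + 0.5) scale, for each tested member (rows, grouped by role). WT 2 and DKO 4 are both low in Fabp4, Aplnr and Cldn5 and high in Plvap and Tal1, and Klf4 varies most, with a pooled SD of 0.888.

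The 2 sets of DKO libraries share a genotype, so their difference measures the sets. Here 2 members rose and 3 fell from set 1 to set 2, 5 of 35, while 18.8% of all genes passed (9.74% higher and 9.04% lower in set 2). Kdr rose from 129, 129 and 153 CPM to 164, 178 and 149 CPM, by 0.26 ± 0.0831 (edgeR adjusted p = 0.0399). Flt1 rose from 71.3, 78.7 and 77 CPM to 89.4, 96.6 and 81 CPM, by 0.23 ± 0.0631 (adjusted p = 0.0163). The ranges of Kdr overlap between the sets and those of Flt1 do not.

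Ecscr fell from 29.8, 26.7 and 27.1 CPM to 22.3, 22.1 and 23.1 CPM, a log2 difference of -0.31 ± 0.0666 (edgeR adjusted p = 0.00454). Emcn fell from 95.4, 87.7 and 92.1 CPM to 67, 57.2 and 78.3 CPM (-0.44 ± 0.106, adjusted p = 0.00823). Egfl7 fell from 112, 77.8 and 85.8 CPM to 74.7, 75.5 and 68.7 CPM (-0.33 ± 0.106, adjusted p = 0.0372). None of these 3 genes overlapped between the sets. The 2 that rose have mean transcript lengths of 5914 (Kdr) and 6365 (Flt1) nucleotides, and the 3 that fell of 993 (Ecscr), 1664 (Emcn) and 838 (Egfl7). Over all tested members, the 14 fitted higher in set 2 had a median length of 3774 nucleotides and the 21 fitted lower one of 1847. With the trend on transcript length removed, Kdr and Flt1 were at -0.018 and -0.074 (adjusted p = 0.911 and 0.472), close to 0. Ecscr, Emcn and Egfl7 were then at -0.14, -0.34 and -0.15 (adjusted p = 0.180, 0.0526 and 0.354), so none of the 5 passed. With only the 6 DKO libraries in the fit none of them passed either. Without DKO 3, 1 member passed, and without Irx4KO 3, 3 did.

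**Figure D5:**
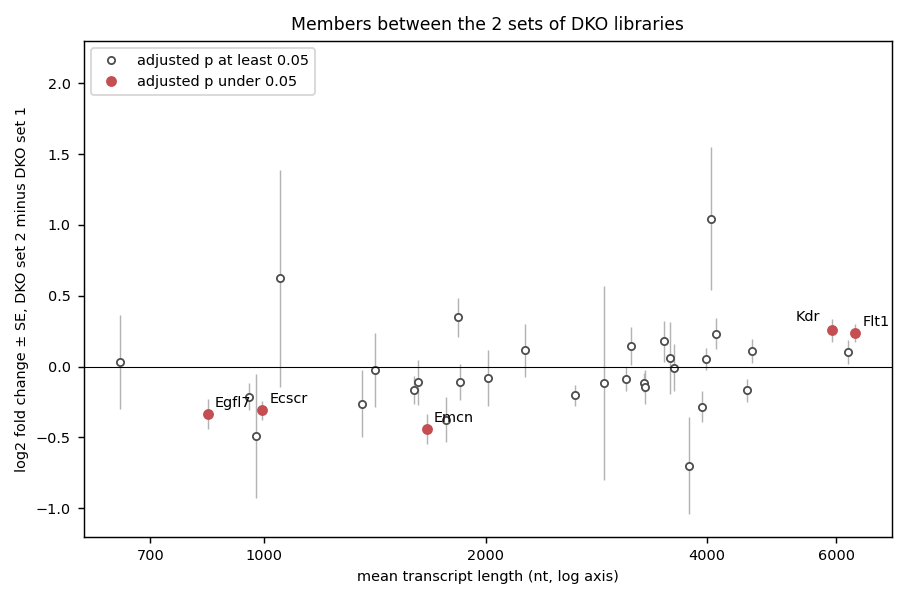
Log2 fold change of each tested member between DKO of set 2 and DKO of set 1 (points, with SE as lines) against its mean transcript length in nucleotides (log axis); filled points passed an adjusted p of 0.05. The long Kdr and Flt1 lie above 0 and the short Egfl7, Ecscr and Emcn below it.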

How the data were processed

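PolyA RNA of mouse ventricles was sequenced in 18 libraries, grouped by their titles. Per the file headers, the authors deposited kallisto tables of estimated counts and TPM per transcript. Version 0.42.2 of kallisto and the build mm9 are from the submitters' processing notes; neither the strand setting nor the transcript release is given in the sources used here. Of 88943 transcripts, 78030 (87.73%) were tied to 28563 genes by GENCODE M21; the rest held 6.43% to 6.77% of counts. Estimated counts were summed per gene and rounded. edgeR 4.0.16 (R 4.3.3; TMM, filterByExpr, robust quasi-likelihood F test) fitted 6 groups of genotype and set, 3 libraries each, over 16607 genes, with Benjamini-Hochberg adjustment at 0.05 over all of them. All adjusted p-values are from this fit unless stated. SE is the log2 fold change divided by the square root of F. CPM use TMM factors. Levels between genes use deposited TPM, summed per gene. In simulated data with the same spread for every gene, it called 29% of 1.5-fold and 96% of 2-fold changes in DKO against WT. Alternatives were DESeq2 1.42.0, RLE factors, no low-count filter, other sample choices, a sex covariate, a length trend, a replicate block and leaving out each library.

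The members, gene lists and tests were chosen with earlier results of these data known. Values in every library are given, in each role, for the 2 members with the smallest p over the comparisons of genotypes. Fabp4, Cytl1, Plvap, Nfatc1, Cldn5, Tal1, Klf4, Ecscr, Flt1, Hbb-y, Hbb-bs and the leaving out of WT 2 with DKO 4 were chosen after their values were seen. Reads of transcripts that overlap another gene cannot be assigned by strand here, since the strand setting is unknown.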

Additional observations from a re-analysis of the deposited data

Results flagged for a closer look

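Among the 6 DKO libraries, 6 of 35 members (17.1%) had 1 library far from the other 5. The same rule picked 1519 of all 16607 genes tested (9.15%). Chance gives such a gap in about 1 in 20 tests where the libraries are of 1 kind, whereas these 6 span both sets. Cdh5 was at 286 CPM in DKO 3, where the next highest was 265. Ramp2 was at 108 CPM in DKO 5, where the next was 80.4. Clec14a, a C-type lectin of vessels, was at 90.4 CPM in DKO 10, where the next was 73.7. Lmo2 was at 23.1 CPM in DKO 10, where the next was 13.9. Cytl1 was at 12.4 CPM in DKO 7, where the next was 7.7. Car4 was at 1.18 CPM in DKO 4, where the next was 0.517. Of these, those of Ramp2, Clec14a, Lmo2 and Cytl1 lie in set 1 and those of Cdh5 and Car4 in set 2.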

How the results depend on the processing

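No member was called between genotypes by edgeR, and over all comparisons the count of members stayed within 1.5 times in 197 of 213 alternatives. In DKO against WT, DESeq2 called 1 member. The fit without WT 2 and DKO 4, left out because both are low in capillary genes, called 3. In DKO against dHet, DESeq2 called 2 and the fit of the compared set alone 1, which also called 1 in DKO against Irx3KO. The fit of only the 2 groups compared called 1 in Irx4KO against dHet. Leaving out each library in turn gave 0 to 2 members in DKO against WT, 0 to 1 in DKO against Irx3KO and 0 to 1 in DKO against Irx4KO. The 5 members called between the sets became 0 with only the 2 groups compared, 2 with the length trend removed (Clec14a at -0.34, adjusted p = 0.00646, and Mmrn2 at -0.41, adjusted p = 0.0458, neither among the 5) and 1 to 7 with a library left out. With the length trend removed Kdr and Flt1 were at -0.018 and -0.074, past 0 but close to it (adjusted p = 0.911 and 0.472). The members' median ranged from -0.152 (without DKO 3) to -0.006 (without dHet 4) in DKO against dHet and from -0.113 to 0.029 (without DKO 5) between the sets when a library was left out. The cause was not tested.

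Counts over all genes moved more. In the order DKO against WT, Irx3KO, Irx4KO and dHet, Irx3KO against Irx4KO and dHet, and Irx4KO against dHet, DESeq2 called 576, 198, 26, 172, 200, 12 and 32 genes, where edgeR called 239, 63, 4, 15, 48, 1 and 2. Over the libraries of the compared set only, the counts that moved by over 1.5 times were 16 in DKO against WT, 179 against Irx3KO, 173 against dHet, 145 in Irx3KO against Irx4KO, 2 in Irx3KO against dHet and 12 in Irx4KO against dHet. With only the 2 groups compared they were 16 in DKO against WT, 108 against Irx3KO, 7 against Irx4KO, 541 in Irx3KO against Irx4KO, 4 and 11 in Irx3KO and Irx4KO against dHet, and 292 between the sets (3119 before). The sex covariate gave 38 in DKO against Irx3KO and the length trend 1569 between the sets. Without WT 2 and DKO 4 there were 22, 1 and 7 in DKO against Irx3KO, Irx4KO and dHet. Leaving out 1 library gave from 67 (without WT 1) to 575 genes (without DKO 5) in DKO against WT, with 124 without WT 3 and 526 without DKO 10. Replicate numbers are shared only within set 2. Of 15 same-numbered pairs, 1 had a correlation of deviations over 0.1 (range -0.29 to 0.12), and of 11 libraries 1 correlated best with its own number, so the numbers were not used as pairs. With the replicate number as a block, 0 members were called in each set 2 comparison, and 38, 3, 34, 14, 2 and 2 genes over all in the order above.

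Estimated counts of 26721576 or more per library leave Etv2 untestable and Car4 imprecise. The 3 libraries per group and the pooled spread limit the smallest difference that can be called.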
